A study of Rattus norvegicus with 12 samples.

Results

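The genes described here are markers of endothelium, the single layer of cells that lines blood vessels: Emcn, Tek, Tie1, Kdr, Flt1, Eng, Pecam1, Cdh5, Nos3 and Vwf. They were taken by symbol from the annotation of the array, which pairs 9 of the 10 listed genes with 12 probe sets, out of 14217 genes named on the array. Cdh5, the cadherin of endothelial junctions, matched no probe set in the annotation used here. Of the 12 probe sets, 9 were bright enough to be tested and cover 8 genes. The single probe set of Nos3 and a further probe set each of Kdr and Flt1 lay below the filter and were left out of the main test.

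Kidney RNA came from 12 Zucker rats, all of them male, and each rat gave 1 array; 6 rats were lean and 6 were obese. Obese Zucker rats carry a defective leptin receptor in every cell, and the labels call the animals a model for diabetes. In each body type, 3 rats ate a ground chow (lean control and obese control), while 3 received rosiglitazone in that chow at a dose of 3 mg/kg body weight (lean rosiglitazone and obese rosiglitazone), all for 12 weeks. Rosiglitazone activates PPARgamma, a nuclear receptor best known from fat cells that is also present in endothelium. No age and no region of the kidney were stated. In whole tissue such as this, fewer endothelial cells and less RNA per endothelial cell cannot be told apart.

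The kidney holds several kinds of endothelium: the fenestrated capillaries of the glomerulus, the capillaries around the tubules, the straight vessels of the medulla, and arteries and veins. Vascular endothelial growth factor (VEGF), made by podocytes and tubule cells, acts on the receptor tyrosine kinases Kdr and Flt1, and angiopoietins act on Tek with its partner Tie1. Emcn is a surface glycoprotein of capillaries and veins, Pecam1 an adhesion molecule at cell contacts, Eng a coreceptor for ligands of the TGF beta family, Nos3 the endothelial nitric oxide synthase, and Vwf the clotting glycoprotein stored in endothelial granules.

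Levels are MAS5 signals, a linear brightness scale on which each array had been scaled to the same trimmed mean, between 500.12 and 500.15. Levels of different genes are not compared, since each probe set has its own response. The median signal per array ran from 204.0 to 238.6. The 3' to 5' ratio, a sign of RNA integrity, ran from 1.074 to 1.319 for GAPDH. It was higher for beta-actin, at 1.57 to 2.398, and for hexokinase, at 1.803 to 2.948. The arrays fell into a higher class (5 arrays, 14969 to 16148) and a lower class (7 arrays, 10686 to 12416) by the mean signal of the cre spike-in, a bacteriophage transcript added at hybridization. Replicates 1 and 2 of both lean groups and obese control 1 formed the higher class. Each lean group thus has 1 rat, replicate 3, in the lower class, and in the higher class the obese control group is 1 rat. A comparison within a class that uses such a rat takes its spread from the groups with more rats, on the assumption that the single rat varies like them. Changes are differences of log2(signal + 16) with their standard error (SE) and 95% interval from limma, and an adjusted p under 0.05 (Benjamini-Hochberg over 18625 probe sets) counts as passing.

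The 12 rats differed in these genes as a block, and the rat that stood apart was obese control 1. Its summed signal over the 9 genes was 4460. The other obese control rats had 8129 (replicate 2) and 6485 (replicate 3), the lean control rats 5902 to 6768, the lean rosiglitazone rats 6110 to 6512 and the obese rosiglitazone rats 8145 to 8575. Obese control 1 was the lowest of all 12 rats for 7 of the 9 genes, the exceptions being Flt1 and Eng, while over all tested probe sets it was the lowest of 12 for 6.51%. Its signal divided by the mean of the other obese control rats ran from 0.549 for Tie1 to 0.801 for Flt1, with a median of 0.612, against a median of 0.994 over all tested probe sets.

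**Figure D1:**
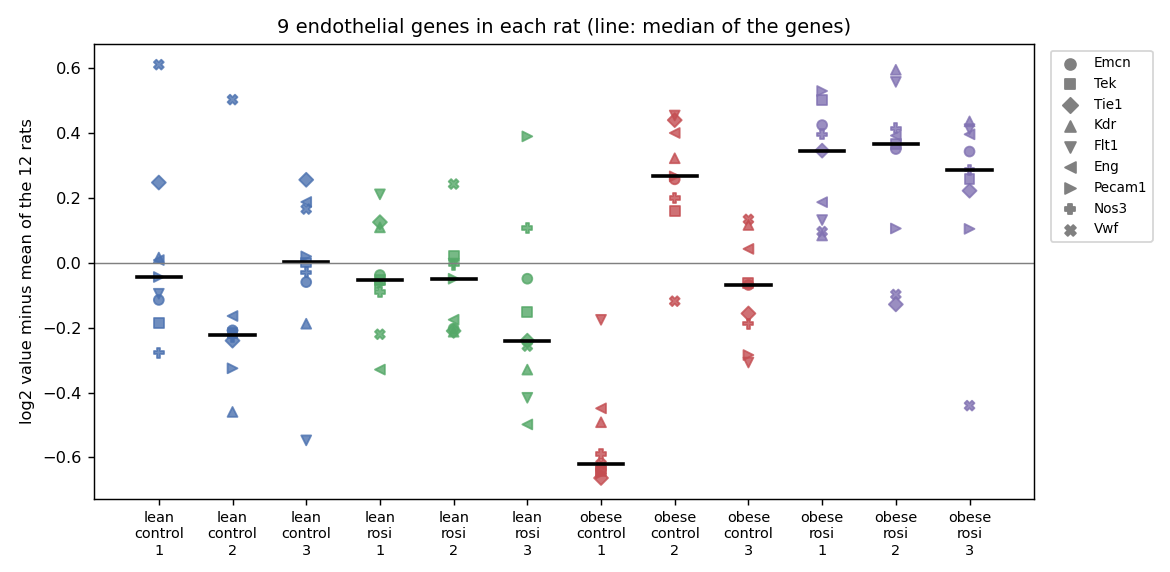
Log2 value of each of the 9 genes in each rat, minus the mean of that gene over the 12 rats (y axis, log2 units; rosi, rosiglitazone); each marker shape is a gene, the colours are the 4 groups and the black line is the median of the 9 genes. The median was -0.62 in obese control 1 and between 0.29 and 0.37 in the 3 obese rosiglitazone rats.

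The same rat was low for other general endothelial genes and for podocyte genes, and also for several lists of other cells. Of 28 further genes known from endothelium in general (such as Adgrl4, S1pr1, Clec14a and Sox18), it was the lowest of the obese control rats for 26, with a median ratio of 0.761. For the 4 measured podocyte genes the median ratio was 0.538, for 8 smooth muscle and pericyte genes 0.8, for 5 lymphatic genes 0.567, for 4 platelet genes 0.627, for 7 fat cell genes 0.751 and for 6 leukocyte genes 0.781. It was 1.18 for 5 proximal tubule genes (0.529 to 1.23) and 1.03 for 3 collecting duct genes. Lists of endothelial signalling genes, many of them shared with other cells, had medians that varied. Nearer 1 were 0.999 for 14 junction genes, 0.966 for 15 nitric oxide genes, 0.948 for 10 TGF beta family genes and 0.925 for 10 VEGF pathway genes. Lower were 0.878 for 11 flow and transcription factor genes, 0.876 for 10 fatty acid genes and 0.865 for 11 Notch, arterial and venous genes. The median was 0.82 for 13 activation and coagulation genes and 0.674 for 5 angiopoietin genes. Obese control 1 was also the obese rat in the higher cre class, and whether the class plays a part in its low values was not tested. The spread of the 9 genes was wider among obese control rats, with a median coefficient of variation of 30.05% (26.3 to 39.3%), than in the other groups, where the medians were 12.61 to 15.39%. Over all tested probe sets the obese control group had the lowest median, 10.05%. For the 9 genes, the rosiglitazone change in obese rats is therefore given with and without this rat.

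Within groups most of the genes moved together from rat to rat. After removal of the 4 group means, the correlation of each tested gene with the mean of the others over the 12 arrays was 0.91 for Emcn, 0.89 for Tek, 0.85 for Eng, 0.82 for Tie1, 0.73 for Kdr, 0.61 for Pecam1, 0.41 for Flt1 and 0.38 for Vwf. Flt1 and Vwf thus followed the others least. Of 10432 other named genes, those with the profile most like the mean of the 8 tested genes were Adgrl4 (r = 0.92), an adhesion receptor of endothelium, Frzb (0.92), a secreted Wnt antagonist, Asic2 (0.91), S100a3 (0.91) and C1s (0.90), a complement protease. The median over those genes was -0.03 and the 95th percentile 0.55. All of these correlations are descriptions over the same arrays, and obese control 1 weighs on each of them.

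Rosiglitazone was compared with control diet in each body type, the question named in the series title. In lean rats, 0 of the 8 tested genes passed the test, with a median change of 0.05 and 5 of 8 above 0. Over all probe sets 1 passed in that comparison, or 0.00537%. In obese rats all 8 tested genes, and Nos3, had a higher mean with rosiglitazone, by 0.05 to 0.56 on the log2 scale with a median of 0.38, but 0 passed, where 13 of all probe sets (0.0698%) did. At an unadjusted p under 0.05 there was 1 gene in lean rats (Vwf) and 3 in obese rats (Tek, Emcn and Pecam1), where the shares over all probe sets were 4.79% and 4.92%. Without obese control 1 the median change in obese rats was 0.20, with 6 of 8 above 0 and a range from -0.16 to 0.33; these are also the values within the lower cre class. In lean rats the median was 0.08 within the higher class, and lean rosiglitazone 3 minus lean control 3, the pair in the lower class, gave -0.15.

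**Figure D2:**
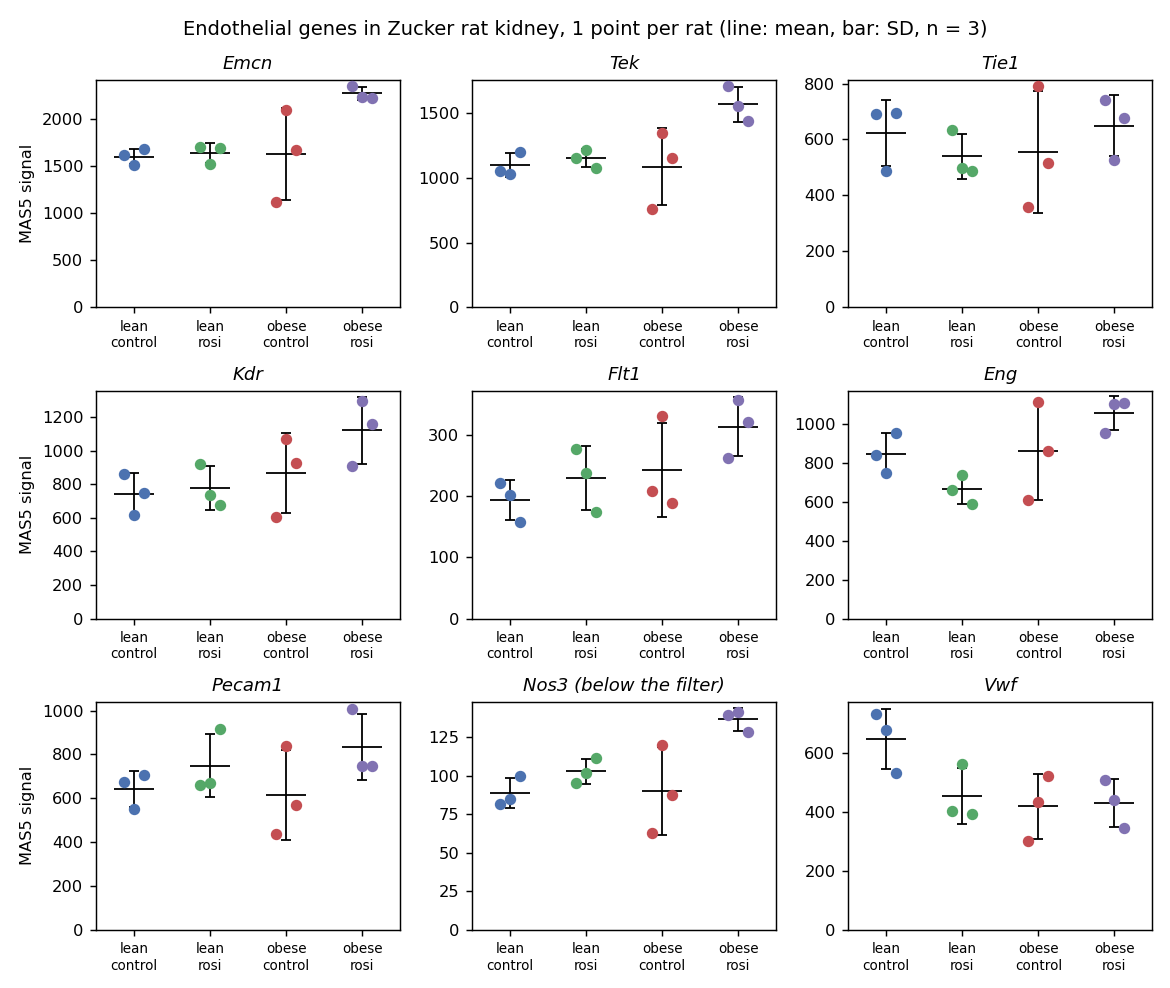
MAS5 signal (y axis, linear, starting at 0) of 9 endothelial genes in 4 groups of 3 rats (x axis; rosi, rosiglitazone); points are rats in the order of their replicate number, long ticks are means and bars are SDs. Emcn, Tek and Nos3 were higher in each obese rosiglitazone rat than in any other rat, while obese control 1, the leftmost red point, was the lowest rat for 7 of the 9 genes.

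Emcn, the capillary and venous glycoprotein, had signals of 1611, 1509 and 1675 in lean control rats and 1700, 1515 and 1687 in lean rosiglitazone rats. In obese control rats they were 1117, 2090 and 1664, and in obese rosiglitazone rats 2349, 2231 and 2219. The lean groups overlapped, and each treated obese rat was above every other rat of the study. The change with rosiglitazone was 0.03 in lean rats (SE 0.16; interval -0.32 to 0.38; adjusted p = 0.999) and 0.52 in obese rats (SE 0.16; interval 0.17 to 0.87; unadjusted p = 0.00617, adjusted p = 0.62), a fold of 1.44. Without obese control 1 the obese change was 0.28.

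Tek, the angiopoietin receptor, had signals of 1053, 1029 and 1199 in lean control rats and 1154, 1216 and 1077 in lean rosiglitazone rats. Obese control rats had 761.6, 1341 and 1148, and obese rosiglitazone rats 1706, 1551 and 1437. Here too the 3 treated obese rats lay above the 9 others. The change was 0.07 in lean rats (SE 0.16; interval -0.27 to 0.42; adjusted p = 0.997) and 0.56 in obese rats (SE 0.16; interval 0.21 to 0.90; unadjusted p = 0.00376, adjusted p = 0.523), a fold of 1.47, and 0.33 without obese control 1. Tie1, its partner, behaved otherwise: 690, 487.5 and 694.2 in lean control, 632.7, 498.1 and 487.5 in lean rosiglitazone, 359.3, 790.8 and 517.6 in obese control, and 739.8, 528.1 and 677.8 in obese rosiglitazone rats. All 4 groups of Tie1 overlapped, and its changes were -0.20 in lean rats (interval -0.71 to 0.31) and 0.27 in obese rats (interval -0.24 to 0.78), the latter 0.00 without obese control 1.

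Nos3, the nitric oxide synthase of endothelium, was dim, at 81.67, 85.06 and 99.94 in lean control and 95.2, 101.9 and 111.5 in lean rosiglitazone rats. It stood at 62.66, 120 and 87.92 in obese control rats and at 139.8, 141.8 and 128.4 in obese rosiglitazone rats. The treated obese rats were again above all others, and the lean groups overlapped. The change was 0.18 in lean and 0.56 in obese rats (1.47-fold), and 0.36 in obese rats without obese control 1. Nos3 was left out of the main test because its mean lay below the filter. In a fit without the filter its change passed in neither body type. Emcn, Tek and Nos3 were the 3 of 9 genes whose obese groups did not overlap, and over all tested probe sets 5.56% were higher in this way.

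The VEGF receptors had intervals that held 0 in both body types. Kdr, the receptor that carries most VEGF signalling in endothelium, had means of 742.6 ± 123.8 (SD, n = 3 here and below) in lean control, 777.7 ± 128.5 in lean rosiglitazone, 867.2 ± 240.2 in obese control and 1122 ± 198.9 in obese rosiglitazone rats. Its change was 0.07 (interval -0.37 to 0.50) in lean and 0.39 (interval -0.05 to 0.83) in obese rats, and 0.15 in obese rats without obese control 1. Flt1, which binds VEGF and also exists as a soluble form that traps it, had 2 tested probe sets. The brighter gave 0.22 in lean (interval -0.28 to 0.72) and 0.38 in obese rats (interval -0.12 to 0.88), or 0.29 without obese control 1. The other gave 0.36 and 0.17 (0.06 without that rat), with lean signals of 222.3, 176.1 and 188.4 on control diet and 312.2, 225.1 and 232.7 on rosiglitazone, which did not overlap (adjusted p = 0.981); 4.1% of all tested probe sets were higher in lean rats in this way. The order of the body types thus differed between the probe sets of Flt1. The third, at 75.66 to 174.9, and a dim probe set of Kdr, at 16.09 to 170.2, were below the filter. In lean and obese rats the third Flt1 set changed by 0.10 and 0.13, and the dim Kdr set by 1.16 and 0.25. The 3 TrpnX control probe sets, which have no target in rat RNA, read 1.04 to 59.6, so the range of the dim Kdr probe set overlapped that of background.

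Eng, the TGF beta coreceptor, had signals of 842.7, 745.9 and 956.3 in lean control and 663.4, 739.9 and 588.2 in lean rosiglitazone rats. In obese rats they were 609.4, 1111 and 863.4 on control diet and 955.9, 1105 and 1108 on rosiglitazone. Each treated lean rat was below each untreated lean rat, which 4.44% of all tested probe sets also showed, and the obese groups overlapped. The change was -0.35 in lean rats (SE 0.18; interval -0.73 to 0.03; adjusted p = 0.981) and 0.33 in obese rats (SE 0.18; interval -0.05 to 0.71; adjusted p = 0.999), the latter 0.10 without obese control 1. By the brightest probe sets, Eng was thus the tested gene with the widest gap between the body types.

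Pecam1, the contact adhesion molecule, had means of 642.6 ± 81.0 in lean control, 749.2 ± 143.3 in lean rosiglitazone, 614 ± 204.9 in obese control and 835.1 ± 151 in obese rosiglitazone rats. The groups overlapped in both body types, with changes of 0.21 (interval -0.24 to 0.66) and 0.47 (interval 0.02 to 0.92; adjusted p = 0.979), the latter 0.26 without obese control 1. Vwf, the clotting glycoprotein, had signals of 731.6, 677.7 and 533 in lean control and 404, 563.2 and 393.6 in lean rosiglitazone rats. It had 302.2, 434.8 and 521 in obese control and 507.1, 441.3 and 344.6 in obese rosiglitazone rats. The lean control rats held the 2 highest values, and the other 3 groups lay in a common range. The change was -0.50 in lean rats (SE 0.21; interval -0.96 to -0.05; unadjusted p = 0.0309, adjusted p = 0.981) and 0.05 in obese rats (interval -0.40 to 0.51; adjusted p = 0.999), the latter -0.16 without obese control 1.

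**Figure D3:**
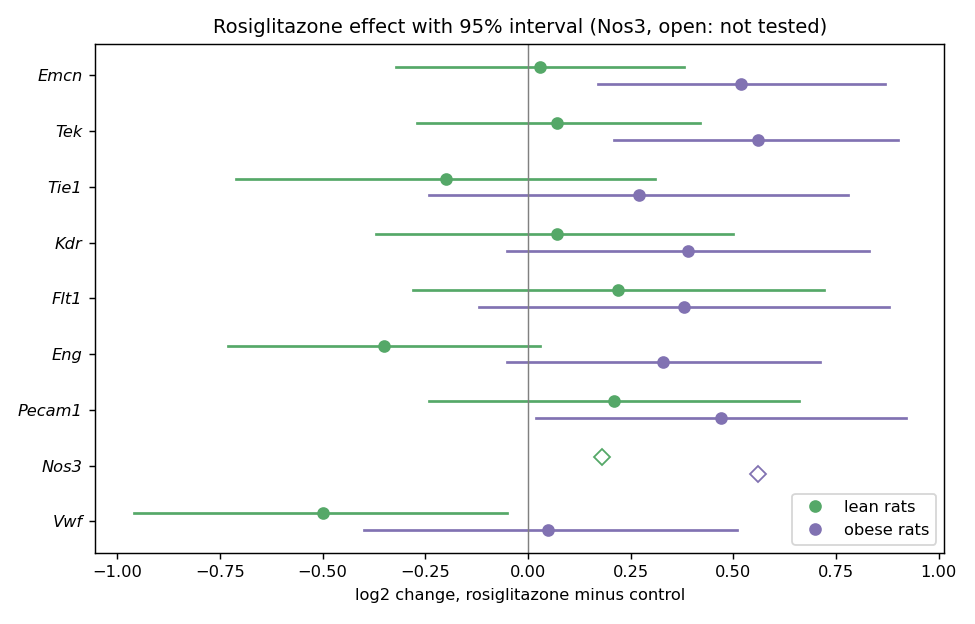
Rosiglitazone effect (x axis, log2 change, rosiglitazone minus control) for each gene (y axis) in lean rats (green) and obese rats (purple), with 95% intervals from limma as lines; Nos3, below the filter, is drawn open without an interval. Each gene is drawn by its brightest probe set. The obese points lay right of the lean points for each gene, by 0.16 (Flt1) to 0.67 (Eng), and no difference passed the test. The other tested Flt1 probe set, not drawn, gave -0.18.

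The difference of the rosiglitazone effect, obese minus lean, was tested directly. It was above 0 for all 8 tested genes with a median of 0.48, and 0 passed, as did 0 of all 18625 probe sets (802 of these, and 1 of the 8 genes, had an unadjusted p under 0.05). The values were 0.67 for Eng (SE 0.25; interval 0.13 to 1.21; unadjusted p = 0.0178), 0.56 for Vwf (interval -0.08 to 1.20), 0.49 for Emcn and for Tek (interval 0.00 to 0.98 for each), 0.47 for Tie1, 0.32 for Kdr, 0.26 for Pecam1 and 0.16 for Flt1, each with an adjusted p of 0.992. These values are of the brightest probe set of each gene. The other tested Flt1 probe set gave -0.18. Of the further sets below the filter, that of Kdr gave -0.91 and that of Flt1 0.03. Without obese control 1 the median of the 8 genes was 0.22, with a range from 0.05 to 0.45. Over both body types together 0 of 8 passed against 11 of all probe sets (0.0591%), with changes from -0.23 for Vwf to 0.34 for Pecam1; without obese control 1 they ran from -0.33 to 0.26.

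Body type was compared within each diet. On control diet 0 of 8 genes passed, where 4.74% of all probe sets did, and the median change from lean to obese was -0.04. The change nearest to passing was that of Vwf, at -0.63 (SE 0.21; interval -1.08 to -0.18; unadjusted p = 0.00978, adjusted p = 0.112). Its 3 obese rats lay below its 3 lean rats, a pattern that 11.2% of all tested probe sets showed, and the gap was narrow, between 521 in obese control 3 and 533 in lean control 3. Without obese control 1 the Vwf change was -0.42, and the median of the 8 genes 0.20 with 7 above 0. Within the higher cre class, where obese control 1 is the single obese rat, the median was -0.45, and within the lower class 0.04. Without lean control 3 the median was 0.02, with 5 above 0. The sign of the median on this diet thus turned on leaving out either of these rats.

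On rosiglitazone, 1 of 8 genes passed, where 5% of all probe sets did: Eng was higher in obese rats by 0.66 (SE 0.18; interval 0.28 to 1.04; adjusted p = 0.0472), or 1.58-fold, at 1056 ± 86.75 against 663.8 ± 75.83. Every obese rat was above every lean rat for Eng, Emcn, Tek and Nos3, 4 of 9 genes, and 13% of all tested probe sets were higher in this way. Emcn differed by 0.47 (adjusted p = 0.117), Tek by 0.44 (adjusted p = 0.141), Kdr by 0.52 (adjusted p = 0.172) and Flt1 by 0.44 (adjusted p = 0.323). The other tested Flt1 probe set gave 0.00, and the further sets below the filter -0.29 for Flt1 and -1.13 for Kdr. Vwf differed by -0.07. Nos3, left out of the main test, differed by 0.36 and did not pass in a fit without the filter (adjusted p = 0.54). The Eng call was close to the threshold: it held under 4 of 16 alternatives, its change ran from 0.51 to 0.82 and its adjusted p from 0.0237 to 0.17 over them, and it was lost on leaving out any 1 of the 6 rats compared. The obese control group has no part in this comparison, but all 3 treated obese rats were in the lower cre class and lean rosiglitazone 1 and 2 in the higher. Within the lower class, where lean rosiglitazone 3 is the single lean rat, Eng had an adjusted p of 0.0512, and with the class as a covariate the median of the 8 genes was 0.27 in place of 0.44.

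Over both diets 0 of 8 genes passed, where 14.3% of all probe sets did. By the brightest probe sets the changes were 0.36 for Flt1, 0.35 for Kdr, 0.32 for Eng, 0.22 for Emcn, 0.20 for Tek, 0.02 for Pecam1 and for Tie1, and -0.35 for Vwf. The other tested Flt1 probe set gave 0.10, and the further sets below the filter -0.30 for Flt1 and -0.68 for Kdr. Leaving out obese control 1 changed the count of passing genes: 4 of 8 then passed, all higher in obese rats, where 12.3% of all probe sets passed. They were Emcn (adjusted p = 0.0103), Eng (0.0146), Kdr (0.0244) and Tek (0.0249). This rat was singled out by its low values for these same genes, so the 4 calls describe the data and are no test. Leaving out any other single rat gave 0 of 8. Within the lower cre class the median was 0.29, with 6 of 8 above 0.

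The start regions of some of the genes are shown: Emcn and Nos3, highest in treated obese rats, Eng, which passed the test on rosiglitazone, and Kdr, whose groups overlapped. Kdr too had its highest mean in treated obese rats. Tie1 and Flt1 also have a promoter and are not printed. The choice of genes is no test of a motif against their values. RefSeq gives a promoter for 6 of the 10 listed genes in the table used (build GRCr8), and the 250 bases before the start are printed 5' to 3' on the strand of the gene. Capitals mark AGGAAG, a core bound by factors of the ETS family, which are known regulators of endothelial genes, or its reverse complement CTTCCT.
Emcn, chr2:228564289-228564538, plus strand: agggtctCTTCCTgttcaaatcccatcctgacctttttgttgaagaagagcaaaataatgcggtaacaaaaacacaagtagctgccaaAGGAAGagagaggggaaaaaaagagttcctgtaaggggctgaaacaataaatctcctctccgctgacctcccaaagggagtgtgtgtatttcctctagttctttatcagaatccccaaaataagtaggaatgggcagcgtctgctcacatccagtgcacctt
Nos3, chr4:11706582-11706831, minus strand: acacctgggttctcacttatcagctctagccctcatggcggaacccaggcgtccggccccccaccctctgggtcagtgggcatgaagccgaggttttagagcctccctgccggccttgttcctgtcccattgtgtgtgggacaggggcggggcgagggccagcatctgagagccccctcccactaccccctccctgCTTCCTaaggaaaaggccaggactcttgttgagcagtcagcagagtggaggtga
Eng, chr3:36332029-36332278, plus strand: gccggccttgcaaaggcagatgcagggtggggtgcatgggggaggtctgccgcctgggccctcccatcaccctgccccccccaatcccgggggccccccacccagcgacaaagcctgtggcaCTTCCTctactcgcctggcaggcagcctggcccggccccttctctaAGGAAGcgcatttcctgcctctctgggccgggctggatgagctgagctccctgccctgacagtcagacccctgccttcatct
Kdr, chr14:32571813-32572062, plus strand: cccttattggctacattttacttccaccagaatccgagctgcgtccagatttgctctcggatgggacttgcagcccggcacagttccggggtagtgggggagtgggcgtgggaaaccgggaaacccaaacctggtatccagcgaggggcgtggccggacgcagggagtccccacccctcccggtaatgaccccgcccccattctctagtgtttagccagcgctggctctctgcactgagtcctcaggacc

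AGGAAG was searched on both strands. It stood in 5 of the 6 promoters (Emcn, Eng, Flt1, Nos3 and Tie1, not Kdr) and in 29.5% of 33469 promoters of the same length. AGATAA, a core of GATA factors, stood in 0 of 6 and in 10.3% of all, and the PPAR response element, searched as AGGTCA repeated in the same direction with 1 base between, in 0 of 6 and in 0.0508% of all. These are matches of letters and not measured sites.

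The other genes of endothelium came from lists that were chosen with earlier results of these data known. Of the general endothelial genes, 27 were tested. With rosiglitazone 0 passed in either body type, with medians of 0.08 in lean and 0.18 in obese rats, where 25 of 27 were above 0. From lean to obese over both diets, 5 of 27 rose and 0 fell, with a median of 0.17, against 7.69% of all probe sets that rose. The 5 were S1pr1, the sphingosine 1-phosphate receptor (0.46, adjusted p = 0.00246), Clec14a, a surface lectin (0.65, adjusted p = 0.00941), the transcription factors Sox18 (0.62, adjusted p = 0.0112) and Sox17 (0.39, adjusted p = 0.029), and Ptprb, the phosphatase that acts on Tek (0.43, adjusted p = 0.0377). Clec14a kept its call under every alternative run (adjusted p 0.0061 to 0.0321). S1pr1 lost it within the lower cre class (adjusted p = 0.061), Sox18 there (0.216) and with the class as a covariate (0.0718), and Sox17 and Ptprb with that covariate (0.09 and 0.111), with median centring (0.0641 and 0.0789) and on leaving out single rats. For Sox17 these were lean control 3, lean rosiglitazone 1, obese control 2 and 3 and obese rosiglitazone 1 and 2 (adjusted p 0.0543 to 0.0791), and for Ptprb lean control 1 and 3, lean rosiglitazone 2 and 3, obese control 2 and 3 and obese rosiglitazone 1 and 2 (0.0531 to 0.0957). Another probe set of Ptprb gave -0.06 (adjusted p = 0.798).

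Clec14a read 121.2, 111.6 and 124.8 in lean control, 174.5, 198.4 and 120.8 in lean rosiglitazone, 160.7, 240.1 and 193.5 in obese control and 269.9, 278.5 and 246.6 in obese rosiglitazone rats. Every obese rat was above every lean rat on the same diet. S1pr1 had means of 761.3 ± 78.25 in lean control, 807.5 ± 35.91 in lean rosiglitazone, 943.5 ± 131.4 in obese control and 1242 ± 76.61 in obese rosiglitazone rats. As for Emcn and Tek, the group of treated obese rats had the highest mean in both genes.

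Among the ligands and signalling partners few genes passed. Rosiglitazone over both body types and obese against lean over both diets each gave 0 calls in several lists. These were the VEGF pathway genes (7 tested, Hif1a and Epas1 among them) and the Notch, arterial and venous genes (10 tested). The flow and transcription factor genes (11 tested) and the lymphatic genes (4 tested) also had 0 calls in both. Angpt2, the angiopoietin that modulates Tek, changed by 0.45 with rosiglitazone in obese rats, which did not pass (adjusted p = 0.988). Of 13 tested junction genes 0 passed with rosiglitazone. From lean to obese 1 of them, Afdn, was called higher over both diets (0.21), where 7.69% of all probe sets were, and on rosiglitazone (0.31). These calls were lost under 12 of 22 and 13 of 17 alternatives, and another Afdn probe set gave 0.10 and 0.01. Of 10 TGF beta family genes, the family Eng works with, 1, Bmpr2, was higher in obese rats over both diets (0.44, adjusted p = 0.00398). Over all probe sets 7.69% were higher in that comparison. These 10 are not receptors alone, with Bmp4, Bmp6 and Id1 among them. The Bmpr2 call was lost within the lower cre class, where its change was 0.45 with 1 rat in each lean group.

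Around Nos3, 14 genes of the nitric oxide pathway were tested. From lean to obese over both diets 1 was called higher and 3 lower, where 14.3% of all probe sets passed. Over both diets Arg2, an arginase that uses the substrate of Nos3, was lower in obese rats by a change of -0.53 (adjusted p = 0.00081) and kept its call under every alternative run. Its means were 1810 ± 170.3 in lean control, 2189 ± 223.4 in lean rosiglitazone, 1204 ± 160.6 in obese control and 1574 ± 100.3 in obese rosiglitazone rats. Arg2 is also made by tubule cells. Ddah1, which breaks down an inhibitor of the synthases, was lower too (-0.39, adjusted p = 0.00508), as was Hsp90ab1, a chaperone (-0.27, adjusted p = 0.0178). Within the lower cre class these changes were -0.19 (adjusted p = 0.134) and -0.14 (adjusted p = 0.243). Hsp90ab1 also lost its call with quantile scaling (-0.12, adjusted p = 0.0743), with the cre covariate (-0.17, 0.0563), with median centring (-0.29, 0.0835), without trend and robust (0.0532) and without obese control 3 (0.0526). Cav1, the coat protein of caveolae that binds Nos3, was higher (0.37, adjusted p = 0.0152), but its other probe sets gave 0.26 and 0.09 and did not pass. The Cav1 call was also lost with median centring (adjusted p = 0.0636) and within the lower cre class, where the change was 0.49. On control diet alone Nos2, another nitric oxide synthase, was higher in obese rats (1.17), a call lost under 11 of 17 alternatives. On that diet 1 of the 14 was called higher and 1 lower, where 4.74% of all probe sets passed.

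Among 11 activation and coagulation genes, Icam1, the leukocyte adhesion molecule that tubule and immune cells also make, was higher in obese rats over both diets by 1.32 (adjusted p = 0.0024), at 314 ± 71.36 in lean control, 209.9 ± 141.1 in lean rosiglitazone, 643.6 ± 124.3 in obese control and 604.2 ± 93.13 in obese rosiglitazone rats. Icam1 kept its call under every alternative run in that comparison. There 2 of the 11 genes were called higher, where 7.69% of all probe sets were. Plat, the tissue plasminogen activator, was higher by 0.63 (adjusted p = 0.0496), a call lost on leaving out 9 of the 12 rats one at a time, all but lean control 3, lean rosiglitazone 3 and obese control 1 (adjusted p 0.053 to 0.119). The Plat call was also lost with the replicate number as a block (adjusted p = 0.0648), with an offset of 1 (0.0533), quantile scaling (0.0593), no filter (0.057) and no trend or robust setting (0.0681), and its change was 0.35 with the cre covariate (0.22) and 0.32 within the lower class (0.178).

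Of the endothelial lists, that of capillary fatty acid handling held the calls for rosiglitazone. The lists were chosen with earlier results of these data known, so these counts describe the data. All 8 tested fatty acid genes were above 0 in lean rats (median 0.96) and in obese rats (median 0.66). Over both body types 3 of 8 passed, where 0.0591% of all probe sets did. They were Fabp4, a fatty acid carrier (2.42, adjusted p = 0.00324), Rbp7, a retinol carrier of capillaries (2.08, adjusted p = 0.00318), and Cd36, the fatty acid uptake receptor (1.20, adjusted p = 0.00518). Rbp7 read 91.58, 119.6 and 98.62 in lean control and 565.8, 449 and 308.3 in lean rosiglitazone rats. In obese rats it read 45.13, 16.49 and 66.71 on control diet and 325.9, 184.6 and 245.9 on rosiglitazone. Every treated rat was above every untreated rat for Rbp7, in both body types. In 2 of the 3 obese control rats Rbp7 lay at or below the highest TrpnX signal, 59.6, so its fitted changes that use this group are not exact; with those values raised to 59.6, Rbp7 was at least 3.36-fold higher with rosiglitazone in obese rats. Cd36 had means of 366.7 ± 104.6, 927.6 ± 181.5, 381.2 ± 70.03 and 821 ± 104.6 in the lean control, lean rosiglitazone, obese control and obese rosiglitazone groups. Within the lower cre class Rbp7 had an adjusted p of 0.157 and Cd36 of 0.0923, while Fabp4 passed under every alternative run over both body types. In obese rats alone Fabp4 (3.03, adjusted p = 0.0185), Rbp7 (2.26, adjusted p = 0.022) and Fabp5, a further carrier (0.82, adjusted p = 0.0217), passed, where 0.0698% of all probe sets did. Without obese control 1 the adjusted p of these 3 genes was 0.0542, 0.0767 and 0.0767. All 3 were also lost without obese rosiglitazone 1 or 3 (adjusted p 0.0853 to 0.17), Fabp4 and Fabp5 without obese control 3 (0.0522 and 0.0812) and Rbp7 without obese control 2 (0.0959).

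These genes are not made by endothelium alone, and fat cell genes moved beside them. The summed signal of the 7 fat cell genes, Fabp4 among them, was 4183 to 7004 in lean control, 9891 to 17473 in lean rosiglitazone, 2472 to 2944 in obese control and 5312 to 6843 in obese rosiglitazone rats, and 2 of the 6 tested rose over both body types. Their part in the values of Fabp4, Cd36 and Rbp7 was not tested. The summed signals of the 9 markers overlapped between the diets in lean rats, where those of the fat cell genes did not. In obese rats neither sum overlapped between the diets. The marker sums of obese rats nearly met, however, at 8129 in obese control 2 and 8145 in obese rosiglitazone 3.

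**Figure D4:**
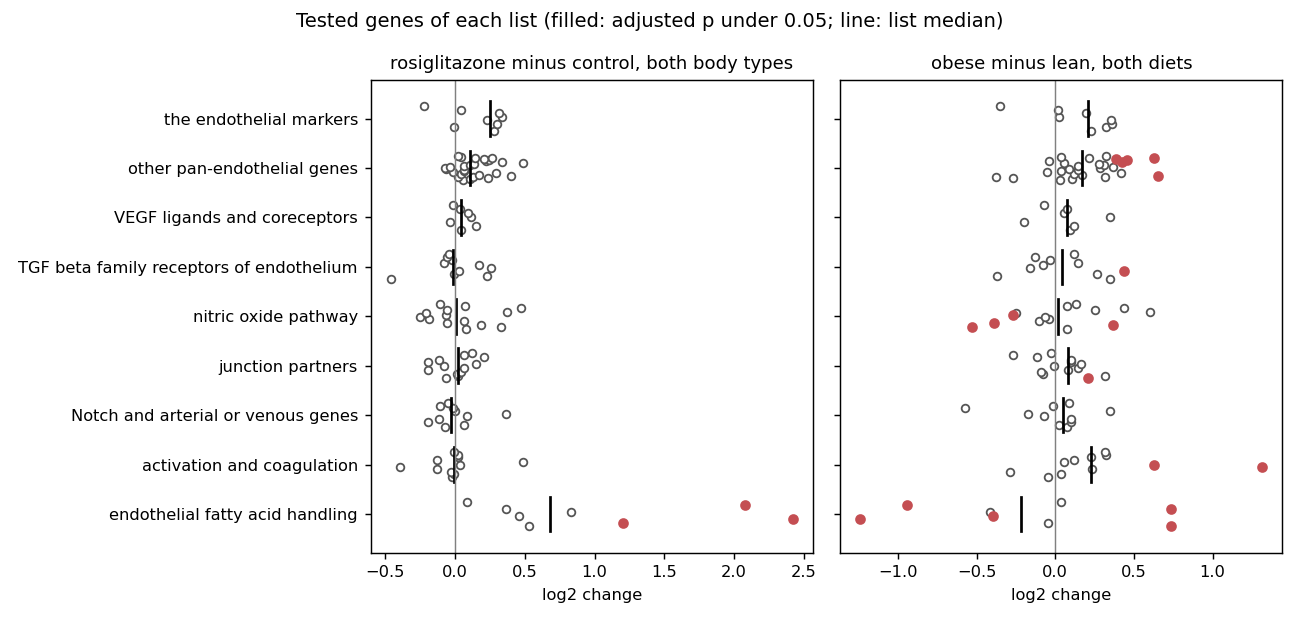
Log2 change of each tested gene (points; filled, adjusted p under 0.05; x axis) by list (y axis) with rosiglitazone over both body types (left) and from lean to obese over both diets (right); black lines are list medians. With rosiglitazone the filled points are Fabp4, Rbp7 and Cd36 of the fatty acid list, and 0 of the 8 endothelial markers passed on either side.

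Markers of other cells were read beside the body type results. From lean to obese over both diets the median change was 0.56 for 4 podocyte genes (1 rose) and 0.26 for 6 smooth muscle and pericyte genes (1 rose). It was 0.36 for 4 lymphatic genes (0 passed) and -0.07 for 5 leukocyte genes (1 fell). It was 0.46 for 3 collecting duct genes, of which 2 rose, and -0.38 for 5 proximal tubule genes, of which 4 fell and 1, Slc5a2, rose. For 6 fat cell genes it was -1.16, and 5 fell. Of the 8 fatty acid genes 2 rose and 3 fell, with a median of -0.22. Over all probe sets 14.3% passed in this comparison. The summed proximal tubule signal was 43071 to 52087 in lean control, 43953 to 48168 in lean rosiglitazone, 34839 to 40345 in obese control and 33670 to 35446 in obese rosiglitazone rats. The summed podocyte signal was 1822 to 4094, 2435 to 3598, 2486 to 5509 and 3134 to 4915 in the same order. Red cell genes moved in the comparison in which Eng passed: on rosiglitazone both measured genes, Hbb and Alas2, rose from lean to obese, with a median change of 1.38, and their summed signal was 4944 to 9735, 2349 to 5670, 5564 to 8087 and 7419 to 12733 in the same group order. The median red cell change with rosiglitazone was -0.69 in lean and 0.56 in obese rats, with 0 of 2 passing in either and a difference of 1.25 that did not pass. The part of these cell types in the higher values of Eng, S1pr1 and Clec14a was not tested.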

How the data were processed

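Kidney RNA (Trizol extraction, Enzo biotin labelling, per the labels) was hybridised to Affymetrix arrays, 1 per rat. The deposited values are signal intensity values made by the authors with MAS5, per the submitters' processing notes, which give no version; the scaling target was not stated. The table was used as deposited. Of 31099 probe sets 57 controls were left out, and an offset of 16 was added before log2. Probe sets with a mean log2 value below the 40th percentile, 7.321, were not tested, which left 18625. All 12 arrays entered 1 limma model (3.58.1, statmod 1.5.0, R 4.3.3) with 4 group means and 8 residual degrees of freedom, with eBayes using trend and robust, and Benjamini-Hochberg adjustment within each of 7 comparisons. The brightest probe set stands for a gene. Every probe set of the listed genes is reported, those beyond the brightest for part of the comparisons. From each list up to 6 genes could be named, called ones first, by smallest p. The members and lists were chosen with earlier results of these data known. The procedure was tested on simulated data. The number of arrays limits the precision.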

Additional observations from a re-analysis of the deposited data

How the results depend on the processing

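Over 63 results on the endothelial markers and 1046 alternatives, 1013 kept direction and side of the threshold, 12 lost a call (all Eng on rosiglitazone), 5 gained one and 16 uncalled values changed sign or moved beyond the spread; 0 called marker values reversed. Besides the single-rat omissions, Eng lost its call with the cre class as covariate (adjusted p = 0.17), median centring (0.0627), quantile scaling (0.0604), no filter (0.0745), no trend or robust setting, and within the lower class (0.0512). Among the list genes, 1 called value reversed, with the other Ptprb probe set (-0.06). The causes were not tested.

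Counts of passing probe sets moved as follows. For rosiglitazone in lean rats (1 as reported) they were 4 with the cre covariate, 3 with median centring, 2 with quantile scaling, 0 within the higher and 23 within the lower class (1 rat against 1, with the spread taken from the obese groups), and 2 to 4 without 1 rat. In obese rats (13) they were 34 with the covariate, 2 without trend and robust, 7 without filter, 31 with the compared groups alone, 21 with quantile scaling, and 0 to 10 without 1 rat. Over both body types (11) they were 20 with the covariate, 4 without trend and robust, 7 with median centring, without filter or with an offset of 64, 5 with an offset of 1, 3 within the lower class, and 4 to 11 without 1 rat. For the difference (0) they were 3, 1 and 6 with the covariate, quantile scaling and the lower class, and 0 to 4 without 1 rat. For body type on control diet (882) they were 548 without trend and robust, 516 with median centring, 52 and 164 within the higher and lower class, and 325 to 837 without 1 rat; 45.5% of the calls were higher, and 34.7% with median centring. On rosiglitazone (932) they were 589, 493 and 533 without trend and robust, with median centring and within the lower class, and 474 to 809 without 1 rat. Over both diets (2665) there were 1147 within the lower class and 1919 to 2705 without 1 rat.

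With the replicate number as a block, 2 probe sets passed in lean rats and 6 over both body types, and Eng on rosiglitazone kept its call (adjusted p = 0.0416). Of the named list genes, Plat over both diets lost its call (0.0648). Deviations of same-numbered arrays correlated between -0.179 and 0.182 over all groups, and those of differently numbered arrays between -0.223 and 0.214. Between the lean groups the same-numbered values were 0.1, 0.132 and 0.182, and each array correlated best with its own number. The replicate 3 arrays, at 0.182, are also the lean arrays of the lower cre class, and its part was not tested. The match in lean rats is a hint from the data and not the design, and the numbers were not taken to pair the samples. Dim probe sets, Nos3 among them, are those where signal over background limits the values.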
